A study of Mus musculus with 12 samples.

Results

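Among 12 orthotopic mouse prostate tumours measured on expression arrays, 4 had log2 levels packed into a narrower range than the rest. The interquartile range over the 28192 probe sets outside the control rows was computed for each tumour, and the tumours with a range under 2.65 on the log2 scale were taken as the narrow-spread group. They were 4 of the 12, namely those of p62 KO mice 2 and 3 and of wild-type mice 2 and 5. Both groups thus hold hosts of each genotype, 2 and 2 against 4 and 4.

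All tumours grew from 50000 TRAMP-C2Re3 cells, a line of mouse prostate carcinoma cells, placed in the prostates of C57BL6 mice and taken after 60 days. The hosts were either wild type or lacked p62, the autophagy receptor and signalling scaffold encoded by Sqstm1, in 6 mice each. The injected cells were the same in both, so that a tumour in a p62 KO host mixes KO host cells with carcinoma cells that carry the gene. Total RNA was amplified with a whole-transcriptome kit for small inputs, and each tumour was measured on 1 array.

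RMA, the procedure named in the submitters' processing notes, usually ends with arrays that share one distribution of probe levels. Differences in spread that remain after summarising probes touch many probe sets at once, in opposite directions at the low and the high end of the scale. For that reason each difference below is given on the deposited values and, where stated, on values forced to share 1 distribution by quantile normalization. The spread groups were formed from these same values. The comparison of narrow-spread with other tumours is therefore a description and carries no test. An interaction term of spread group and host genotype, fitted as part of the design, is not independent of the grouping either and supports nothing here. A difference means the mean of the 4 minus the mean of the 8 on the log2 scale with host genotype as a covariate. Labels give no batch, scan date or RNA quality value.

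The interquartile ranges of the narrow-spread tumours were 2.26 in KO host 2, 2.15 in KO host 3, 2.59 in wild-type host 2 and 2.47 in wild-type host 5 (mean 2.37 ± 0.20, SD, n = 4). The other 8 lay between 2.70 and 2.95 (mean 2.85 ± 0.09, SD, n = 8). Wild-type host 2 lay just inside the threshold, and wild-type host 1, at 2.70, and KO host 1, at 2.76, lay just outside. Both KO tumours were narrower than both wild-type tumours of the group.

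The narrowing came from both ends of the distribution. The lower quartile was 5.08 to 5.36 in the narrow-spread tumours against 4.85 to 4.99 in the others, and the upper quartile 7.50 to 7.66 against 7.69 to 7.81. The median moved less, from 6.21 to 6.26 in the others to 6.27 to 6.44. The control rows of the same arrays, which the rule did not use but which were normalized along with the rest, had interquartile ranges of 3.30 to 3.41 in the narrow-spread tumours and 3.14 to 3.28 in the others, so that the order was turned. Their medians were 5.65 to 5.84 against 5.87 to 6.05.

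**Figure D1:**
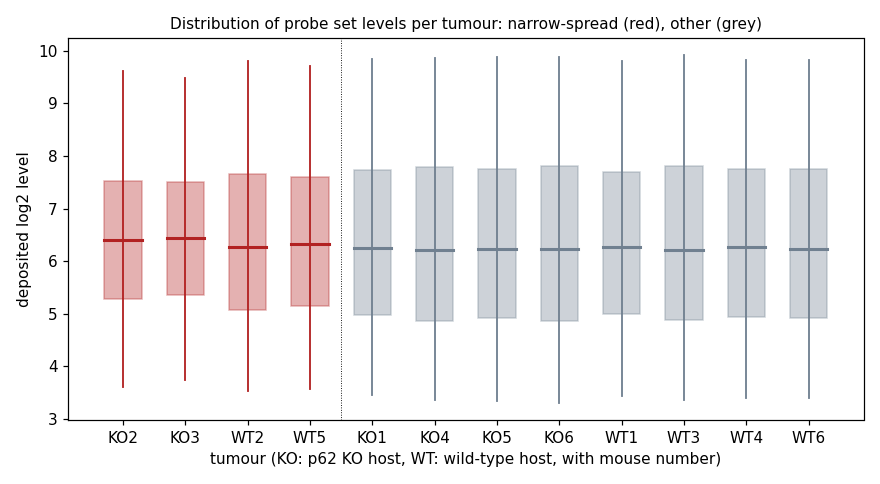
Deposited log2 levels of the 28192 probe sets in each tumour, with the narrow-spread tumours in red on the left and the others in grey. Boxes run from the lower to the upper quartile, the thick line is the median, and the thin line runs from the 5th to the 95th percentile. The red boxes start higher and end lower than the grey ones.

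Pearson correlations over all probe sets were 0.987 to 0.991 between the 8 other tumours, 0.966 to 0.987 among the 4 narrow-spread tumours and 0.935 to 0.986 between the groups. Quantile normalization, which gives all arrays the same spread, left these at 0.987 to 0.991, 0.967 to 0.987 and 0.940 to 0.987. The narrow-spread tumours thus also differed from the others, and from each other, in the order of their probe sets.

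Probe sets were sorted by their mean level over the 12 tumours into 10 level classes of equal size. The median difference was 0.17 in class 1, the lowest, 0.30 in class 2 and 0.09 in class 6. It was -0.06 in class 7, -0.35 in class 9 and -0.26 in class 10. On quantile-normalized values the medians of the classes lay between 0.04 and -0.10. Over all probe sets the median difference was 0.09 on the deposited values and -0.03 after quantile normalization.

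**Figure D2:**
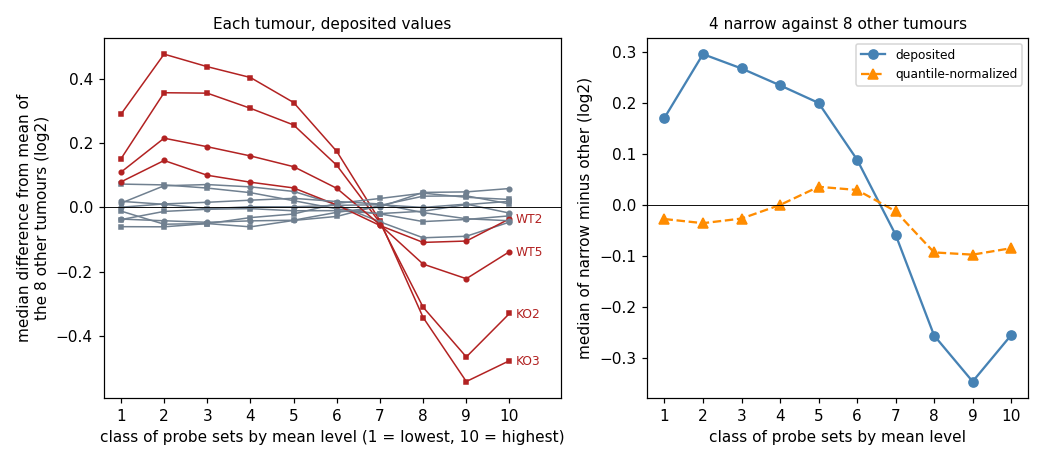
Left, the median difference of each tumour from the mean of the 8 other tumours, by class of mean level on the deposited log2 scale (red, narrow-spread tumours; grey, others; squares, p62 KO hosts; circles, wild-type hosts). Right, the median difference of the 4 from the 8, which runs from 0.30 to -0.35 on deposited values (blue) and stays between 0.04 and -0.10 after quantile normalization (orange).

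A probe set was counted as separated when it differed by at least 1 on the log2 scale, a 2-fold change, and the 4 tumours did not overlap the 8. On deposited values 517 probe sets (1.83% of 28192) were separated upwards and 31 (0.11%) downwards. After quantile normalization 404 (1.43%) were separated upwards and 37 (0.131%) downwards, and 355 and 14 were so on both. Without the limit on size, 3566 (12.6%) were clear of overlap upwards and 1887 (6.69%) downwards on deposited values, and 2082 (7.39%) and 1646 (5.84%) after quantile normalization. A common median per array gave 392 upwards and 100 downwards, and a common median and range gave 598 and 168. Since the tumours were chosen by their spread on these values, nothing is read from the counts. Of the 517, 157 carry 1 gene symbol, 181 several and 179 none in the platform annotation. Of the 31 lower ones, 28 carry 1 symbol.

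The pattern was larger in the p62 KO hosts. Within KO hosts, 1128 probe sets were higher by at least 1 and 840 lower, against 361 and 41 within wild-type hosts. The KO and wild-type differences come from separate tumours, and across probe sets, which are not independent replicates, they correlated with r = 0.759 on deposited and 0.708 on quantile-normalized values. They had the same sign for 81.0% and 73.8% of probe sets. The points share the array design and the probe sets' mean levels. The narrow-spread tumours of both hosts were also picked by the same rule on these values. Agreement between hosts follows in part from that rule and is no replication.

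For genes, 1 probe set with a single symbol was used per gene, 19937 in all. A gene is called separated here when the 4 tumours did not overlap the 8, in the same direction, on both the deposited and the quantile-normalized values. By this measure 821 genes (4.12%) were higher and 767 (3.85%) lower. The 15 with the largest quantile-normalized difference in each direction are described next.

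The higher genes were led by matrix metalloproteinases, secreted zinc-dependent proteases that cut collagens and other matrix proteins. They are induced in wounds, inflammation and tumours, in stromal, immune and epithelial cells alike. Several of their genes lie side by side on mouse chromosome 9. Of the 15 higher genes 7 were metalloproteinases, and all 7 lie in that stretch.

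Mmp20, enamelysin, a protease of developing tooth enamel, stood at 9.25 in KO host 2, 9.60 in KO host 3, 7.69 in wild-type host 2 and 8.69 in wild-type host 5. The other tumours lay between 5.72 and 6.48, with a median of 6.05. The 4 tumours were clear of the 8, with wild-type host 2 the lowest of them. The difference was 2.81 on deposited values (SE 0.32) and 2.91 after quantile normalization (SE 0.34).

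Mmp1a, an interstitial collagenase, stood at 8.47, 9.09, 6.18 and 8.34 in the same order of tumours and at 5.06 to 5.98 in the others. Wild-type host 2 was only just above wild-type host 6, the highest of the others. The difference was 2.66 (SE 0.47) and 2.75 (SE 0.50) after quantile normalization.

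Mmp12, the macrophage elastase, was at 9.81, 10.36, 9.10 and 9.59 against 6.77 to 8.44, a difference of 2.04 (SE 0.23). Mmp13, another interstitial collagenase, was at 9.92, 9.96, 9.71 and 9.37 against 7.07 to 8.96, a difference of 1.80 (SE 0.24). For both of them the quantile-normalized difference was close in KO and wild-type hosts, 2.26 and 2.15 for Mmp12 and 1.98 and 1.96 for Mmp13. For Mmp7, matrilysin, it was 2.92 in KO hosts and 1.33 in wild-type hosts.

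The stromelysin gene Mmp10 differed by 1.79 (SE 0.32) and Mmp27 by 1.81 (SE 0.36) on deposited values. In both, wild-type host 2 was the lowest of the narrow-spread tumours, at 7.26 and 7.67, and the highest of the others reached 6.95 and 7.55.

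The order of genes along chromosome 9 was taken from the RefSeq annotation of GRCm38.p6, after these names had been seen. The deposited data name no build, and no position on the chromosome is given for the array's probe sets. From Casp1 to Cntn5 28 genes of this stretch were measured. Within it 10 metalloproteinase genes followed each other without a break, Mmp13, Mmp12, Mmp1b, Mmp3, Mmp1a, Mmp10, Mmp8, Mmp27, Mmp20 and Mmp7. All 10 were higher by at least 1 on deposited and on quantile-normalized values, where 95 of all genes (0.479%) were that much higher after quantile normalization. Their median difference was 1.90 and 2.06. On both scales 7 of the 10 were separated, against 4.12% of all genes. They are the same 7 through which this stretch was chosen, so that nothing is read from these shares.

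The mean level of the 10 genes was 9.34 in KO host 2, 9.49 in KO host 3, 8.0 in wild-type host 2 and 8.63 in wild-type host 5. In the other 8 tumours it lay between 6.48 and 7.16, the highest being wild-type hosts 1 and 6. The lowest narrow-spread tumour, wild-type host 2, was also the one nearest the threshold of the rule.

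The other 3 metalloproteinases overlapped between the groups. Mmp1b was at 7.40 to 8.28 in the narrow-spread tumours and at 4.39 to 5.68 in 7 of the others, but at 8.77 in wild-type host 6. Mmp3, stromelysin-1, was at 8.82 and 9.02 in wild-type hosts 2 and 5, below KO host 1 at 9.17, wild-type host 1 at 9.10 and wild-type host 4 at 9.39. Mmp8, the neutrophil collagenase, was at 7.43 in wild-type host 2 and reached 7.83 in KO host 6. Mmp1a and Mmp1b are close copies, and whether their probe sets share signal was not tested.

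The other 18 genes of the stretch had a median quantile-normalized difference of 0.14, and 3 of them were higher by at least 1. The 3 were 1700128F08Rik, an uncharacterised transcript, at 2.72, Casp1, the inflammatory caspase that matures interleukin-1 beta, at 1.21, and Ddi1 at 1.08. Genes next to the metalloproteinases differed less (Dcun1d5 0.26, Tmem123 0.07, Birc2 0.12), and Yap1, a transcriptional coactivator of the Hippo pathway, stood at -0.07. Dcun1d5 was nevertheless separated upwards. These neighbours had mean levels of 11.51 to 12.11, above the 95th percentile of each array (9.48 to 9.92). The metalloproteinases of the stretch had mean levels of 6.25 to 8.80. Whether differences are compressed at such high levels was not tested. KO host 5, one of the other tumours, stood far below the rest at Casp4, Casp12 and Cep126. Of the metalloproteinases outside the stretch, 12 were measured, and their quantile-normalized differences ran from -0.42 for Mmp19 to 0.16 for Mmp11, with a median of -0.11. None of those 12 was separated upwards.

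**Figure D3:**
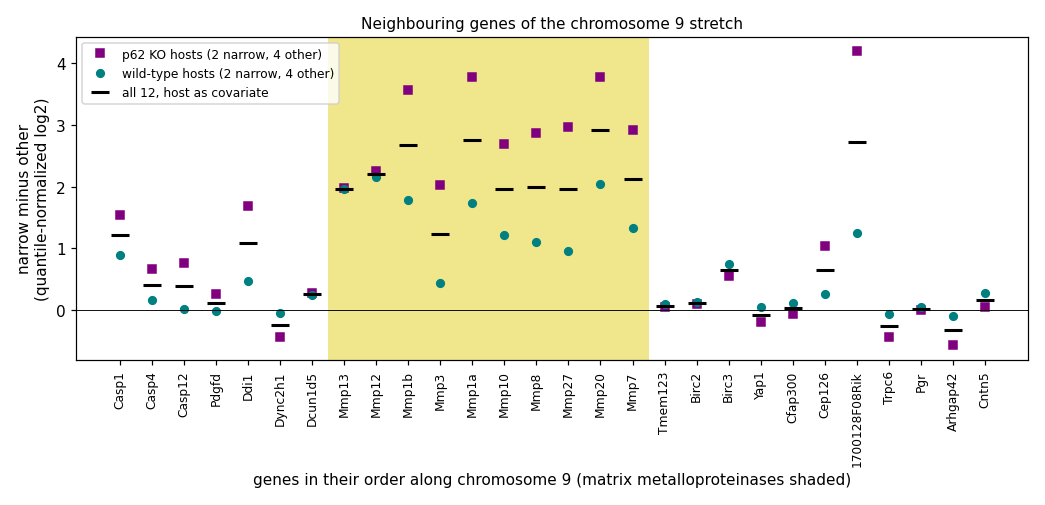
Quantile-normalized difference of narrow-spread from other tumours for 28 genes in their order along chromosome 9, within p62 KO hosts (squares), within wild-type hosts (circles) and over all 12 tumours with host as covariate (bars). The 10 shaded metalloproteinase genes all lie above 1 in the fit over 12 tumours, and 15 of the 18 genes around them below it.

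The promoters of these 10 genes were read for 1 motif, TGANTCA, where N is any base. It is a loose form of the site of AP-1 factors such as Fos and Jun, which has C or G in the middle. The motif reads the same on both strands. The windows are the 250 bases before each transcription start in RefSeq, GRCm38.p6. Of the 12 windows of the 10 genes, 8 held a match, as did 6.75% of all 32851 promoter windows of this length. The windows of Mmp20, with the largest difference of the 10, and of Mmp3, with the smallest, are shown with the match in capitals.
Mmp20 (chr9:7627981-7628230, plus strand): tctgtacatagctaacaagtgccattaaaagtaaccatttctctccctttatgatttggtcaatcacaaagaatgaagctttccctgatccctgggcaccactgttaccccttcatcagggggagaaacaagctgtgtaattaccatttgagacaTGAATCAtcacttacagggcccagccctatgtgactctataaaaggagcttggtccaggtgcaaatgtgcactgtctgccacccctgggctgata
Mmp3 (chr9:7445572-7445821, plus strand): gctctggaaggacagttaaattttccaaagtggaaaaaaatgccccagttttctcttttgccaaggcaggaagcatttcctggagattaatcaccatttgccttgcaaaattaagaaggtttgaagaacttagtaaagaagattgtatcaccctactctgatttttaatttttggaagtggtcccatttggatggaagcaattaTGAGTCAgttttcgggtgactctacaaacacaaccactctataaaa
The match began 95 bases before the start in Mmp20, with A as its middle base, and 46 bases before it in Mmp3, with G. No match was found in the window of Mmp8 or of Mmp27. A match is a description of the letters and was seen at both ends of the range of differences. Fos itself differed by -0.10 on deposited values and -0.25 after quantile normalization, with overlap. The 10 genes were picked by their values and belong to 1 family, so that their windows are not independent. A part for AP-1 factors was not tested.

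The other higher genes were microRNA genes, a 5S ribosomal RNA gene copy, uncharacterised transcripts and olfactory receptor genes. The microRNA gene Mir680-1 stood at 9.77, 9.59, 8.84 and 8.87 in KO hosts 2 and 3 and then in wild-type hosts 2 and 5, against 5.82 to 7.47, a difference of 2.58 (SE 0.33). Mir680-2 differed by 1.65 (SE 0.29) and Mir680-3 by 0.89 (SE 0.13). All 3 were separated on both scales. RefSeq gives the 3 genes, which lie on chromosomes 6, X and 12, the same mature sequence of 21 bases, shown because it is the part that the 3 separated genes share, with the seed, bases 2 to 8, in capitals.
mmu-miR-680: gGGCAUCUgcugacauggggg
The array measures longer transcripts of each locus, not the mature form, and whether the 3 probe sets share signal was not tested. Of 291 microRNA genes measured, 34 (11.7%) were separated upwards and 2 (0.687%) downwards, against 4.12% and 3.85% of all genes, and the median was 0.10 on deposited and -0.08 on quantile-normalized values.

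A copy of the 5S ribosomal RNA gene, n-R5s136, was at 9.24, 9.23, 8.18 and 8.36 against 6.97 to 7.83, a difference of 1.34 (SE 0.18). The uncharacterised transcripts 1700128F08Rik and 1700054O19Rik differed by 2.64 (SE 0.50) and 1.55 (SE 0.29). In both, the KO hosts stood above the wild-type hosts of the group, at 8.80 and 9.19 against 6.64 and 7.03 for 1700128F08Rik.

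Olfactory receptor genes, which encode odorant receptors of the nasal epithelium, form the largest gene family of the mouse. Olfr1290 was at 5.00, 6.40, 6.32 and 5.78 in the 4 tumours and at 2.64 to 4.44 in the 8, a difference of 2.43 (SE 0.41). Olfr1471 differed by 1.83 (SE 0.22) and Olfr1289 by 1.79 (SE 0.26). In these 3 genes the quantile-normalized difference was larger within wild-type hosts than within KO hosts, 2.66 against 1.81 for Olfr1290.

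Of 1027 olfactory receptor genes, 1010 were higher in the narrow-spread tumours on deposited values and 890 after quantile normalization. Their median difference was 0.55 and 0.28, against 0.05 and -0.05 over all genes. The family mean was 4.71 to 5.07 in the 4 tumours and 4.16 to 4.42 in the 8, all in the lower part of the scale. Upwards 222 (21.6%) were separated and downwards 1, against 4.12% and 3.85% of all genes. The 277 receptors on chromosome 2 had a quantile-normalized median of 0.40, the 220 on chromosome 7 of 0.22 and the 128 on chromosome 9 of 0.23. The close sequence of the receptors within a cluster can let probe sets share signal, which was not tested.

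Neighbouring genes were also read in windows of 11 along each chromosome. Of 19640 windows, 18 had a median quantile-normalized difference of at least 1. Of these, 12 lay on chromosome 9 around the metalloproteinases and 6 on chromosome 2 among olfactory receptors from Olfr1280 to Olfr1286. At the other end, 16 windows had a median of -0.5 or lower. They were 8 around the zinc finger genes Zfp58, Zfp87 and Zfp748 on chromosome 13 and 8 around Msn, Vsig4 and Heph on chromosome X.

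The receptor, keratin-associated and defensin families below had medians above 0 on both scales. Vomeronasal receptors have a mean level of 3.97, in level class 1, whose probe sets had medians of 0.17 and -0.03. Taste receptors (4.52) and defensins (4.67) lie in class 2, with medians of 0.30 and -0.04. Keratin-associated proteins (5.42) lie in class 4, with medians of 0.23 and -0.0002. The 37 bitter and sweet taste receptors had a median of 0.46 on deposited and 0.18 on quantile-normalized values, with 6 separated upwards, Tas2r110 among them at 0.98 after quantile normalization. The 44 keratin-associated proteins, structural proteins of hair, were all higher on deposited values (median 0.46), 37 were higher after quantile normalization (median 0.28), and 15 were separated. The 167 vomeronasal receptors had medians of 0.39 and 0.13, with 20 separated. Relative to all genes their median was -0.08 under a common median and range, and above 0 under the other scalings. The 44 defensins, antimicrobial peptides, had medians of 0.33 and 0.07, with 2 separated. The shares separated upwards were 16.2% of taste receptors, 34.1% of keratin-associated proteins, 12% of vomeronasal receptors and 4.55% of defensins. Over all genes it was 4.12%, so that the defensin share was near that of all genes. The share over all genes is not matched for level. None of these 4 families had a gene separated downwards.

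The lower genes were of another kind. The small nucleolar RNA Snord52, a guide for RNA methylation, stood at 5.68, 5.56, 6.45 and 6.05 in KO hosts 2 and 3 and then in wild-type hosts 2 and 5, against 6.68 to 7.45. The difference was -1.21 (SE 0.20) and -1.34 (SE 0.23) after quantile normalization. Of 52 small nucleolar RNAs measured, 42 were lower after quantile normalization, with a median of -0.35. Downwards 6 (11.5%) were separated, among them Snord42b at -0.79, and upwards 1 (1.92%), against 3.85% and 4.12% of all genes. The quantile-normalized median was -0.49 in KO hosts and -0.15 in wild-type hosts.

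Abca9, a lipid transporter of the ABC family, was at 7.52, 6.84, 7.18 and 7.84 against 8.07 to 8.97, and differed by -1.35 (SE 0.19). Entpd1, the surface enzyme CD39 that breaks down extracellular ATP, was at 7.58, 7.24, 7.81 and 8.25 against 8.59 to 9.54, and differed by -1.28 (SE 0.18). After quantile normalization Abca9 differed by -1.15 within wild-type and -1.22 within KO hosts, and Entpd1 by -0.88 and -1.29.

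Cpa4, a carboxypeptidase, was the most even, at 6.06 to 6.25 in the 4 tumours against 6.82 to 7.76, a difference of -1.20 (SE 0.18). Prepl, a peptidase-like enzyme, was at 6.25 and 6.24 in the KO hosts, 7.57 and 7.09 in the wild-type hosts and 7.86 to 8.30 in the others. The other lower genes were Slf1 (-1.09), a DNA repair factor, Ttc27 (-1.18), Taf9b (-0.95), a transcription factor subunit, Phf11c (-0.85), Zfp677 (-0.87), Tbc1d7 (-0.80), a partner of the TSC complex, and Vps45 (-0.92), a vesicle fusion factor. After quantile normalization these 7 differences lay between -1.05 and -1.20.

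Btk, a kinase of B cells and myeloid cells, was at 5.98, 5.71, 6.13 and 6.19 against 6.78 to 7.22, and differed by -0.99 (SE 0.12). Ccr1, a chemokine receptor of monocytes, was at 5.82, 5.89, 6.64 and 6.31 against 6.78 to 7.49, and differed by -1.10 (SE 0.21) after quantile normalization. In bulk tissue, fewer cells of a type and less RNA per cell cannot be told apart.

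Genes of the sex chromosomes stood among the lower ones. Uty, a Y-linked gene related to histone demethylases, was at 5.10, 4.84, 5.13 and 5.63 against 5.76 to 6.43, a difference of -0.91 (SE 0.17). Kdm5d differed by -0.77 and Eif2s3y by -0.79, and both were separated. Of the 9 Y-linked genes measured those 3 were separated downwards, against 3.85% of all genes. Sry (0.33) and Srsy (0.55) were higher with overlap, and 4 lay between -0.09 and 0.12 on deposited values. The 739 genes of chromosome X had a median of -0.03 on deposited values and -0.22 after quantile normalization, against 0.05 and -0.05 for all genes. Xist overlapped between the groups.

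**Figure D4:**
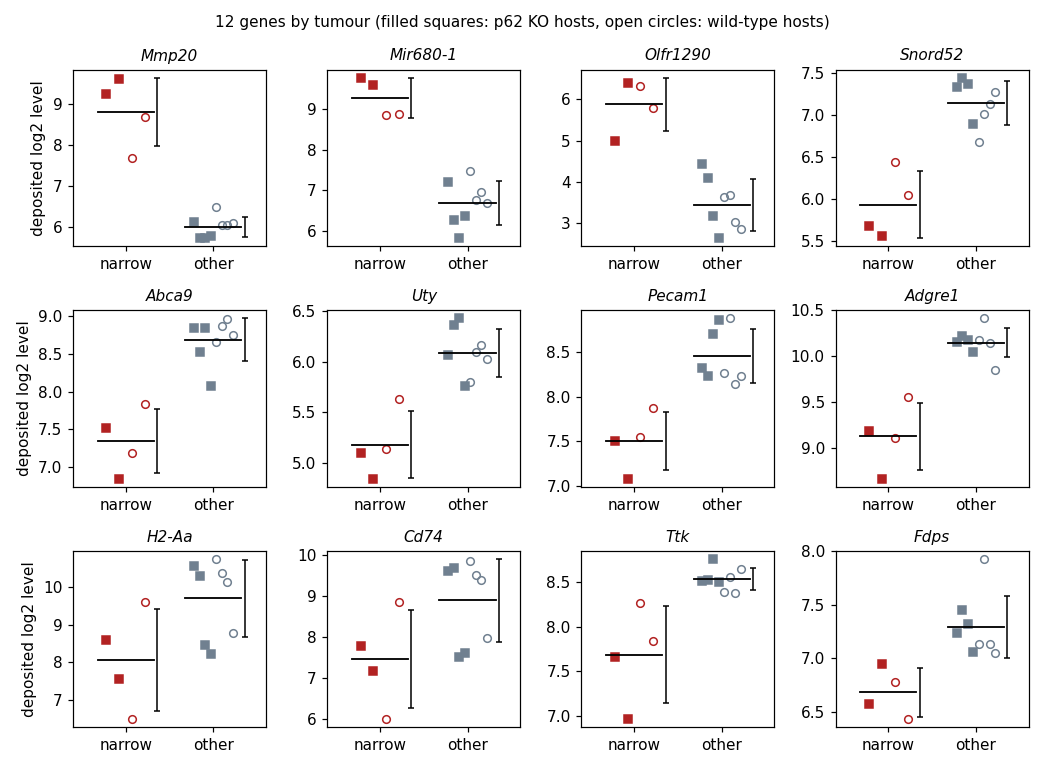
Deposited log2 level of 12 genes in each tumour (red, the 4 narrow-spread tumours; grey, the 8 others; filled squares, p62 KO hosts; open circles, wild-type hosts), with the group mean as a bar and its SD beside it. Mmp20, Mir680-1 and Olfr1290 are higher without overlap, H2-Aa and Cd74 overlap, and the other 7 are lower without overlap.

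In all, 35 gene lists were examined for cell types, metabolism and stress, with 681 of 740 genes measured, beside 8 gene families taken by name. A list is described by its counts and its median beside those of all genes, 0.05 on deposited and -0.05 on quantile-normalized values, with 4.12% separated upwards and 3.85% downwards. The median of all genes is not matched for level. Probe sets of level class 2 had medians of 0.30 and -0.04 on the 2 scales, those of class 9 of -0.35 and -0.10, and those of class 10 of -0.26 and -0.08. Of the 43 medians 20 were above 0 on deposited values and 16 after quantile normalization.

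Cell cycle genes were low on both scales. Their mean level of 8.75 lies in class 9, where probe sets had medians of -0.35 and -0.10. On deposited values 35 of 36 were lower, with a median of -0.41, and after quantile normalization 33 were, with a median of -0.21. Ttk, a kinase of the spindle checkpoint, was at 7.67, 6.96, 8.27 and 7.84 against 8.38 to 8.76. It and Rrm1, a subunit of ribonucleotide reductase, at 8.73 to 9.57 against 9.68 to 10.15, were the 2 separated genes. Mki67, the proliferation marker, differed by -0.32 on deposited and -0.08 on quantile-normalized values.

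Sterol and fatty acid synthesis and the chaperones of the endoplasmic reticulum had the lowest medians of the lists of protein-coding genes. The mean level of the sterol list, 7.90, lies in class 8, where probe sets had medians of -0.26 and -0.09. That of the chaperone list, 9.49, lies in class 10, with medians of -0.26 and -0.08. Of 22 sterol and fatty acid genes 20 were lower on deposited values, with a median of -0.52, and 19 after quantile normalization, with a median of -0.29. Fdps, farnesyl diphosphate synthase, was at 6.43 to 6.95 against 7.06 to 7.93 and was the 1 separated gene. Idi1, the isomerase before it, differed by -0.95 with overlap. All 18 chaperone genes were lower on deposited values, with a median of -0.53, and 17 after quantile normalization, with a median of -0.31, where 2 were separated. Hspa5, the chaperone BiP, differed by -0.24 (SE 0.10).

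Autophagy genes had medians of -0.33 and -0.15, with 18 of 23 lower on either scale and 4 separated. Their mean level of 7.73 lies in class 8, where probe sets had medians of -0.26 and -0.09. Atg5, needed for LC3 conjugation, was at 6.21, 5.79, 6.68 and 6.43 against 6.77 to 7.18. Atg14 (-0.41) and Pik3c3 (-0.67), partners in the lipid kinase that starts autophagosomes, were also separated. Sqstm1, whose product is p62, differed by -0.37 on deposited and -0.10 on quantile-normalized values. Lysosomal genes had medians of -0.21 and -0.10, with Gusb and Atp6v1a separated, at a mean level of 9.53, in class 10.

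Genes of proteasome, respiratory chain, ribosome biogenesis and translation factors had medians of -0.32, -0.25, -0.24 and -0.19 on deposited values, and between -0.14 and -0.08 after quantile normalization. The mean levels of these lists ran from 8.81 to 10.62, in classes 9 and 10, whose deposited medians were -0.35 and -0.26. Housekeeping genes, chosen as often stable, stood at -0.16 and -0.14, with Tfrc at -0.83 and Actb at 0.08. Among the lists with mean levels in class 10, only the 60 ribosomal proteins had a median above 0 on deposited values. Their medians were 0.07 and 0.04, with 5 separated upwards, among them Rpl29 at 0.68 and Rps20 at 0.60. The 31 collagen and matrix genes, at a mean level of 9.10, had medians of -0.08 and 0.09.

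Of 21 macrophage genes 1 (4.76%) was separated downwards, and of 20 endothelial genes 1 (5%) downwards and 1 upwards, shares near the 3.85% and 4.12% of all genes. Adgre1, a surface receptor of macrophages, was at 9.19, 8.66, 9.10 and 9.55 against 9.85 to 10.41, a difference of -1.02 (SE 0.15), and was the 1 separated gene of 21. Ccr2 (-0.87) and Mrc1 (-0.58) overlapped, and Arg1 was higher by 0.69 with overlap. The macrophage list's mean ran from 8.54 to 8.87 in the 4 tumours and from 8.73 to 9.07 in the 8. Its median was -0.20 on deposited and -0.12 on quantile-normalized values.

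Pecam1, the endothelial adhesion molecule CD31, was at 7.50, 7.08, 7.55 and 7.88 against 8.14 to 8.87, a difference of -0.95 (SE 0.20). Cldn5, a tight junction protein of endothelium, went the other way, at 6.47 to 7.11 against 6.14 to 6.40. Tek, the angiopoietin receptor, differed by -0.59 with overlap. The 20 endothelial genes had medians of -0.07 and -0.13.

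Class II antigen presentation genes varied widely from tumour to tumour in both groups. H2-Aa, a class II chain, was at 8.60, 7.56, 6.49 and 9.61 in the 4 tumours and from 8.24 to 10.76 in the 8, a difference of -1.64 (SE 0.72). Cd74, the invariant chain, differed by -1.44 (SE 0.68). KO hosts 5 and 6 and wild-type host 6, in the other group, were at 8.24 to 8.77 for H2-Aa, within the range of the narrow-spread tumours, and wild-type host 2 was the lowest of all 12. The list of 16 genes had no separated member, and medians of -0.07 and -0.23.

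Luminal and basal epithelial genes had medians slightly above 0. The keratin Krt8 was at 8.46, 8.65, 8.09 and 8.30 against 7.76 to 8.24, with overlap. The difference was 0.40 (SE 0.13) on deposited and 0.67 (SE 0.16) on quantile-normalized values. Epcam, the epithelial adhesion molecule, was at 4.43 to 5.16 against 4.32 to 4.66, near or below the lower quartile of each array. The median of 18 luminal genes was 0.27 and 0.10, with 0 separated. That of 14 basal genes was 0.32 and 0.16, with Ngfr the 1 separated gene. The luminal mean level, 6.01, lies in level class 5, with medians of 0.20 and 0.04 over its probe sets. The basal mean level, 5.74, lies in class 4, with medians of 0.23 and -0.0002. The 19 prostate secretion genes had medians of 0.24 and -0.05, with Mmp7, of the chromosome 9 stretch, as the 1 separated gene, at 6.34 to 9.30 over the 12 tumours. Sbp, spermine-binding protein, was at 3.07 to 3.66 in 11 tumours, below the lower quartile of each, and at 6.05 in wild-type host 4.

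Fibroblast markers went both ways, with 9 of 21 higher and 12 lower on deposited values and medians of -0.21 and -0.08. Pdgfra, a fibroblast receptor, differed by -0.57, S100a4 by -0.85 and Fap by -0.54, while Loxl1, which crosslinks elastic fibres, differed by 0.26, all with overlap. The 1 separated member, named after its value was seen, was Gli1, a transcription factor of hedgehog signalling, higher by 0.24. Of 16 smooth muscle and pericyte genes 0 were separated, with Rgs5 at -1.04 (SE 0.48) and Myl9 at 0.13. Of 15 skeletal muscle genes 1 was separated, Ckm, muscle creatine kinase, at 6.71 to 7.10 against 6.39 to 6.68. T and NK cell genes had medians of 0.13 and -0.08, neutrophil genes of 0.28 and 0.03, and B cell genes of 0.22 and -0.06. The direction of the T and NK and of the B cell list therefore turned with the scaling.

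Handling of tissue can induce immediate early and heat shock genes, and the 21 measured had medians of -0.04 and 0.05, with means of 7.84 to 7.96 in the 4 tumours and 7.68 to 8.18 in the 8. Spread itself moved with each group named above, and its part in any of these results was not tested.

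**Figure D5:**
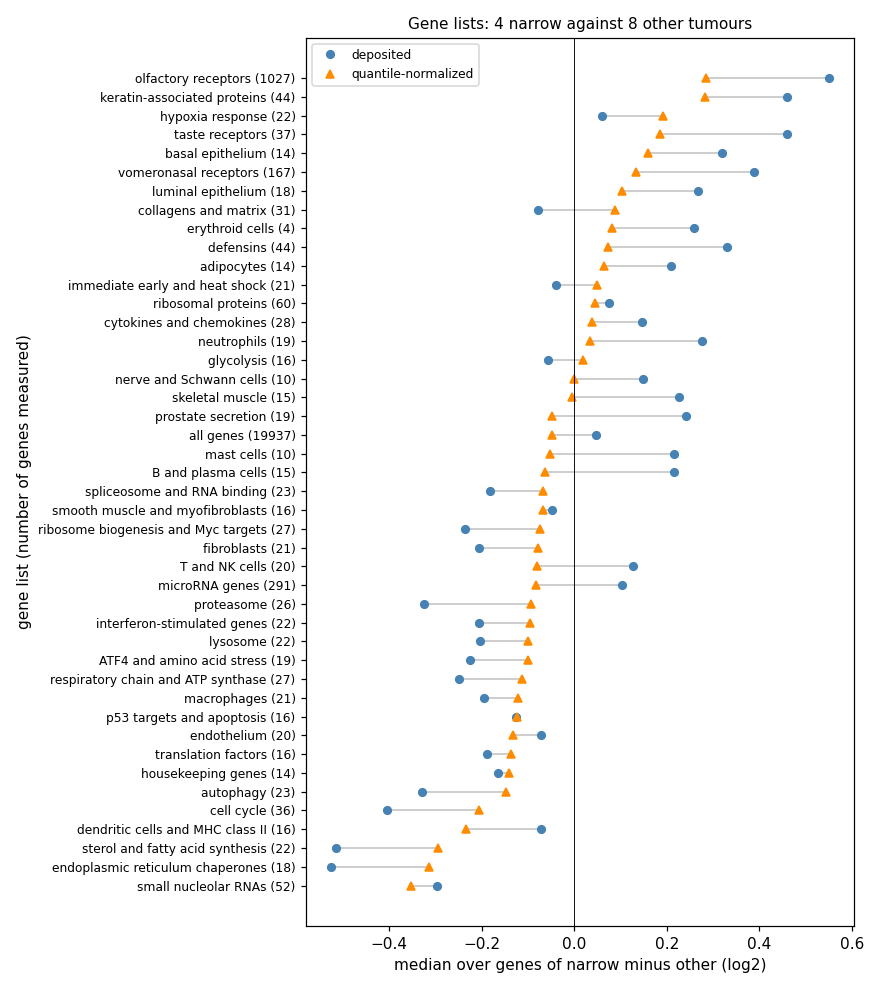
Median difference of narrow-spread from other tumours for 43 gene lists and for all genes, on deposited (circles) and quantile-normalized (triangles) values, sorted by the latter. Olfactory receptors and keratin-associated proteins stand highest, and small nucleolar RNAs, endoplasmic reticulum chaperones and sterol genes lowest.

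Hypoxia and glycolysis genes had medians of opposite sign in the host genotypes, a contrast of lists that was not tested. The 22 hypoxia response genes had a quantile-normalized median of -0.15 within KO hosts and 0.47 within wild-type hosts, and the 16 glycolysis genes of -0.30 and 0.31. Bnip3, a mitophagy receptor induced by low oxygen, was at 9.95, 9.77, 10.33 and 10.05 in the narrow-spread tumours of KO hosts 2 and 3, followed by wild-type hosts 2 and 5. The other tumours were at 9.90 to 10.70 in KO hosts and 7.77 to 9.14 in wild-type hosts. The wild-type narrow-spread tumours thus stood in the range of the KO tumours for this gene. Car9, a carbonic anhydrase of hypoxic cells, was at 8.02 and 7.37 in wild-type hosts 2 and 5, against 5.81 to 6.86 in the other wild-type hosts.

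As a further description, gene levels were set against the interquartile range within the 8 other tumours alone. The range is computed from these same levels and is the value the rule used, so that a correlation of either sign follows in part from a gene's place on the scale. The points are 8 tumours that share the normalization. The lowest correlations belonged to Mir150 (r = -0.985), Dnmt3aos, Olfr958, Cabp2 and Ghrhr, and the highest to Anapc2 (r = 0.991), a subunit of the anaphase-promoting complex, Eif2b2, Rnaseh2a, Lonp2 and Prmt5.

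Host genotype was given by the labels and was tested with limma, with Benjamini-Hochberg adjustment over 28192 probe sets. With the spread group as a covariate, 0 probe sets were called higher and 1 lower in p62 KO hosts (0.00355%). At an unadjusted p under 0.05, 1007 were higher and 1076 lower, together 7.39%. Nlrp1c-ps, a pseudogene of the inflammasome sensor family, differed by -1.68 (SE 0.20, limma adjusted p = 0.0241). Among the 8 other tumours alone it was again the 1 call (0.00355%), lower with 0 higher, at -1.99 (SE 0.17, limma adjusted p = 0.00656). There, 723 probe sets were higher and 713 lower at an unadjusted p under 0.05, together 5.09%. Without any difference, a share of about 0.05 passes that limit, so that nothing is read from the unadjusted counts.

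Nlrp1c-ps was at 5.75 in KO host 2, 5.40 in KO host 3, 6.18 in wild-type host 2 and 7.09 in wild-type host 5. In the others it was at 4.99 to 5.46 in KO hosts and 6.85 to 7.53 in wild-type hosts. The narrow-spread tumours kept the order of the genotypes but lay closer together, with a difference of -1.06 between 2 and 2 tumours. Leaving out 1 tumour in turn, the call over 12 tumours was kept in 5 of 12 cases and lost in 7, with adjusted p between 0.000392 and 0.107. Over the 8 tumours it was kept in 7 of 8.

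Sqstm1, the gene absent from the KO hosts, differed by -0.16 over the 12 tumours with the spread group as covariate (limma adjusted p = 0.759) and by 0.02 among the 8 others. Between the 2 and 2 narrow-spread tumours it differed by -0.51, with KO hosts 2 and 3 at 8.17 and 8.45 and wild-type hosts 2 and 5 at 9.09 and 8.55.

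The interaction term in limma, of whether the narrow-spread difference was unequal between host genotypes, passed the threshold for 1852 probe sets (6.57%), 765 higher and 1087 lower in KO hosts. Of these, 1478 had the same direction in both hosts and were larger in KO hosts. The KO tumours of the narrow group also had the smaller interquartile ranges, and the groups were formed from these same values, so that nothing is read from this count. With the interquartile range as a further covariate, 0 probe sets were called, and without wild-type host 2 likewise 0.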

How the data were processed

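The deposited table holds log2 intensities per probe set for 12 tumours, made by the authors with RMA per the submitters' processing notes; version, genome build and array settings are not given in the sources used here. All 34760 rows were complete. The 6568 rows with identifiers under 10344614 were taken as control rows. Of the 28192 others, 21640 have 1 symbol in the platform annotation, and each of the 19937 genes is given by 1 probe set, which for 954 of them meant taking the brightest of several by mean. Precision is limited by the number of arrays, which hold no read counts.

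Differences and genotype tests came from limma 3.58.1 in R 4.3.3 (lmFit, with eBayes, two-sided and Benjamini-Hochberg adjustment at 0.05 for genotype and interaction), tested on simulated data. SEs of narrow-spread differences are those of the linear model. Named genes were the 15 separated genes with the largest quantile-normalized difference in each direction, the first gene and the 4 largest differences of each list, genotype calls, Nlrp1c-ps and Sqstm1, and the 5 genes at each end of the likeness to the spread. Other genes, such as those of the chromosome 9 stretch and of chromosome Y, were chosen after their values were seen. Members and lists were chosen with earlier results of these data known. The labels name 1 mouse per tumour. Gene order came from RefSeq, GRCm38.p6. Plots used matplotlib 3.10.9.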

Additional observations from a re-analysis of the deposited data

Results flagged for a closer look

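Of 188 sets of 4 or 8 values, 9 held 1 tumour that stood away from its group, where chance gives about 1 in 20. Among the narrow-spread tumours, KO host 3 was at 5.35 for Slf1, with the nearest tumour at 6.23. For the mean of the T and NK cell genes, wild-type host 2 was at 5.25, with the nearest at 5.63. Among the 8 others, KO host 5 was at 7.12 for Taf9b, against 6.61 for the next.

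The same tumour, KO host 5, was far below the others at 3 genes of the chromosome 9 stretch. Casp4 was at 9.22, with the next tumour at 11.09, Casp12 at 8.96, with the next at 11.003, and Cep126 at 7.93, with the next at 10.21. Pdgfd and Ddi1 were also lowest there, at 8.51 and 6.10. Birc2 and Yap1, between Casp12 and Cep126 in gene order, were not low there. Birc2 was at 11.57, within the range of the other tumours, and Yap1 at 12.10, the highest of the 12 and next to 12.03 in KO host 6.

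Wild-type host 6 was at 8.77 for Mmp1b, with the next of the 8 at 5.68, while its Mmp1a was at 5.98. Wild-type host 4 was at 4.59 for the mean of the prostate secretion genes, with the next at 4.41, and KO host 1 at 6.26 for the nerve and Schwann cell genes, with the next at 6.10.

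The interaction term of host genotype and spread group passed the threshold in limma for 1852 probe sets, 6 of the 30 named genes among them. The KO tumours of the group had the smaller interquartile ranges, and the term was computed from the values that formed the groups. It gave 0 calls once the interquartile range was added to the fit, and 0 without wild-type host 2. As a description, the narrow-spread difference was larger in KO than in wild-type hosts by 1.57 for Mmp20, 2.72 for 1700128F08Rik, 1.42 for Mmp7, 1.87 for Mmp27 and 1.51 for 1700054O19Rik, and lower by -1.10 for Prepl.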

How the results depend on the processing

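The count of probe sets separated upwards, 517, was 413 to 643 when 1 tumour at a time was left out, and that downwards, 31, was 15 (without KO host 3) to 167 (without wild-type host 2). Upwards it was 147 without dim probe sets, 149 with 1 probe set per gene, 1453 at a size of 0.58 and 100 at a size of 2. Downwards it was 100 with a common median, 168 with a common median and range, 178 with the mouse number as a block, 121 over all rows of the table, 774 at 0.58, 0 at 2 and 9 with array weights. With the wild-type narrow-spread tumours alone, a choice made after seeing the data, the counts were 322 and 14, and with the KO ones alone 1077 and 797. Of the 10 metalloproteinases of the chromosome 9 stretch 8 to 10 were higher by at least 1 in each setting run. The stretch was chosen by these values, so that nothing is read from this.

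The olfactory receptor median of 0.55 was 0.28 with quantile normalization, 0.43 with a common median, 0.12 with a common median and range, 0.31 with cyclic loess, 0.46 with array weights, 0.42 with the wild-type and 0.68 with the KO narrow-spread tumours alone. Without 1 tumour it was 0.49 to 0.60. The chromosome X median of -0.03 was -0.22, -0.16, -0.38 and -0.18 under these 4 scalings and 0.0012 with the mouse block, a turn of sign, and -0.045 to -0.017 without 1 tumour. Lists with a median above 0 numbered 20 to 21 without 1 tumour, and under a common median and range 22 of 43 list medians had the opposite sign. The 5 scalings put the median of all probe sets between -0.07 and 0.09. Cell cycle, sterol, chaperone, autophagy and small nucleolar RNA genes had medians below that of all genes in all 5 scalings. Olfactory receptors and keratin-associated proteins had medians above it in all 5. A common median moves all genes of an array alike, so these distances had to equal those on deposited values. Under a common median and range the distance from all genes was -0.01 for cell cycle, -0.03 for chaperone and -0.07 for autophagy genes. It was -0.19 for sterol and -0.27 for small nucleolar RNA genes. Of 680 recomputed differences of the 30 named genes 0 turned sign. These genes were picked as large and clear of overlap on both scales. A turn of sign was therefore largely excluded beforehand, and nothing is read from that count.

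Genotype calls lower in KO hosts over 12 tumours, 1, were 3 with quantile normalization, with a common median and range and with loess, 2 with a trended robust eBayes, 0 without dim probe sets and 0 with the mouse number as a block. Without 1 tumour they were 0 to 3, with 0 to 0 higher. Among the 8 others they were 0 without dim probe sets and 0 to 9 without 1 tumour, with 0 to 2 higher. Interaction calls, 765 higher and 1087 lower, were 238 and 121 with loess, 249 and 468 with array weights and 0 and 0 with the interquartile range as a covariate. Calls lower were 549 with quantile normalization and 2028 with a common median and range, and calls higher were 331 without dim probe sets. Without 1 tumour they were 0 to 1465 higher and 0 to 1442 lower, with 0 in both directions without wild-type host 2. The causes were not tested. The correlations of deviations within a mouse number ran from -0.55 to 0.37, with 4 of 6 over 0.1. The 2 below 0 were numbers 3 and 5, each with 1 narrow-spread and 1 other tumour. By the same measure 0 of 6 KO and 2 of 6 wild-type tumours correlated best with their own number. The spread group was not taken out of these deviations, so they cannot show whether mouse numbers pair tumours.

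These values are limited by a group of 4 tumours with a single array each. Detection calls were not used here, so low levels have no background to be read against.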
